A study of Mus musculus with 2 samples.

Results

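Of the 99782 anti-FLAG peaks that the authors placed relative to genes, 3021 (3.03%) had a region of maximum signal that covered a transcription start site (TSS). They were chosen by position alone, as the peaks for which the authors' annotation gives a distance of 0 bp between the region of maximum signal and the nearest start, and their height played no part in the choice. The region of maximum signal is the stretch of a peak over which coverage stays at its highest value. It is a stretch and not a point, so a wide region covers a TSS more easily than a narrow one. All 3021 regions covered the assigned start when the coordinates were compared again, and no other peak's region covered its own assigned start.

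The peaks came from CUT&Tag, an assay in which an antibody tethers the transposase Tn5 to chromatin so that DNA near the antibody's target is cut and tagged for sequencing. The tissue was hippocampus of untreated C57BL/6J mice of the genotype CamK-PARIS. There was 1 library made with anti-FLAG and 1 made with IgG, both from that genotype, and the IgG library enters only as the control in the authors' peak calling. The labels name no promoter or cell type for the transgene, and they give no age, sex or number of animals.

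PARIS is a zinc-finger repressor, the product of the mouse gene Zfp746, and is known for repressing Ppargc1a through insulin response sequences in its promoter. A TSS is the base at which RNA polymerase II begins a transcript, and many genes have several. Promoters of widely expressed genes often lie in CpG islands, where the dinucleotide CG has not been lost to methylation, and such promoters are commonly nucleosome-depleted and can start transcription in both directions. Promoters with a TATA box and few CG are typical of genes used in particular tissues.

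With 1 library per antibody there is no replicate error, so no difference between antibodies was tested and no p-value is given. Intervals are Wilson 95% intervals for shares and Newcombe 95% intervals for differences of shares. They cover counting error over peaks or genes only, and peaks of 1 library are not replicates. Sequencing depth is unknown from the files. In whole tissue, fewer bound cells and less signal per cell cannot be told apart.

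The sequences below show the promoters on which the results turn. The first 3 belong to the tallest members and Itsn1 is also the highest over a pair of opposed genes, Dtnb is the highest with an insulin response sequence in the bases shown, Mdm4 is a gene with a reported link to PARIS, and Parva, added after its values were seen, is one of the 2 lowest. Each is 180 bases of the GRCm38.p6 (mm10) genome from RefSeq, 5′ to 3′ on the strand of the gene, from 150 bases before the TSS to 29 after it. For Fam131a, Hnrnpll and Mdm4, which have another annotated transcript that begins 39, 107 and 86 bp further upstream, the window is placed around that start. Capitals mark matches, on either strand, to the insulin response sequence (TATTTTT or TATTTTG), the CCAAT box (CCAAT), the GC box (GGGCGG), the ETS core (CCGGAAG) and the AP-1 site (TGANTCA).
Itsn1, chr16:91729131-91729310, plus strand: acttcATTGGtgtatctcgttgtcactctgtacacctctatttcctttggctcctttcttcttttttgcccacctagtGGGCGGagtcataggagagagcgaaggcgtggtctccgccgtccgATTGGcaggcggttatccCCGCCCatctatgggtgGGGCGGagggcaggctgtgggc
Fam131a, chr16:20693091-20693270, plus strand: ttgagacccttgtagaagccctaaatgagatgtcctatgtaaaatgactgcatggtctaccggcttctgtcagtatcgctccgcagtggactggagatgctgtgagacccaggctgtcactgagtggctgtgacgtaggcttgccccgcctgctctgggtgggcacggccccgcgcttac
Hnrnpll, chr17:80062305-80062484, minus strand: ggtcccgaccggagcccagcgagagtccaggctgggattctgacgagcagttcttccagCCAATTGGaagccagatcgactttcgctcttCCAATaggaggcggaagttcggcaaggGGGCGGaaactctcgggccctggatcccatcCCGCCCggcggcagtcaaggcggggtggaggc
Dtnb, chr12:3719390-3719569, plus strand: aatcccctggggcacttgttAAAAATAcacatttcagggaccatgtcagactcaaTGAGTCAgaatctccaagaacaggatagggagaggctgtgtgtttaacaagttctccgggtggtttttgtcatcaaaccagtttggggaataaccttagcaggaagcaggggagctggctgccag
Mdm4, chr1:133025387-133025566, minus strand: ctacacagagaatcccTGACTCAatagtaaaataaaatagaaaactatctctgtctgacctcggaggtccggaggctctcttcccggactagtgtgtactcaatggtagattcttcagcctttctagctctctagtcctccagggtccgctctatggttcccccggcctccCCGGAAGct
Parva, chr7:112427556-112427735, plus strand: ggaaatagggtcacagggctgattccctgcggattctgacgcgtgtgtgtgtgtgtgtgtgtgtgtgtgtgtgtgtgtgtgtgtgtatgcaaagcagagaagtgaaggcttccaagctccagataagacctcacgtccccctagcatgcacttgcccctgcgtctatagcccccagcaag
The Itsn1 window holds 10 CG dinucleotides with GC and CCAAT boxes, and the Hnrnpll window holds 14 with the same 2 kinds of box, one of them a CCAAT pair that overlaps on the 2 strands. Fam131a has 8 CG and none of the motifs. The Dtnb window has 1 CG and carries the insulin response sequence on the opposite strand, as AAAAATA. The Mdm4 window has 6 CG, an ETS core and an AP-1 site and no insulin response sequence. Parva has 5 CG, a long alternation of g and t, and no motif.

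Peaks gathered around their assigned starts. The rule of choice places the members at the centre, so their shares of the central bins and their midpoints are given as description only. Placed by the midpoint of that region, 2079 peaks fell in the 100 bp before the assigned TSS and 1795 in the first 100 bp after it, against 335 and 390 in the outermost 100 bp bins within 1 kb. The peaks on a TSS made up 50.6% of the bin before the start and 64.2% of the bin after it. They made up 16.3% and 33.0% of the next bins out. Taken over their whole length, the peaks on a TSS reached a median of 184 bp upstream (quartiles 82 and 343) and 244 bp downstream (101 and 411), and 55.9% (54.2 to 57.7) extended further downstream than upstream. The midpoint of the region lay a median of 7 bp downstream of the start (quartiles -34 and 69 bp), and in 54.5% (52.7 to 56.3) it lay downstream, a share whose interval overlaps that of the whole peaks.

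**Figure D1:**
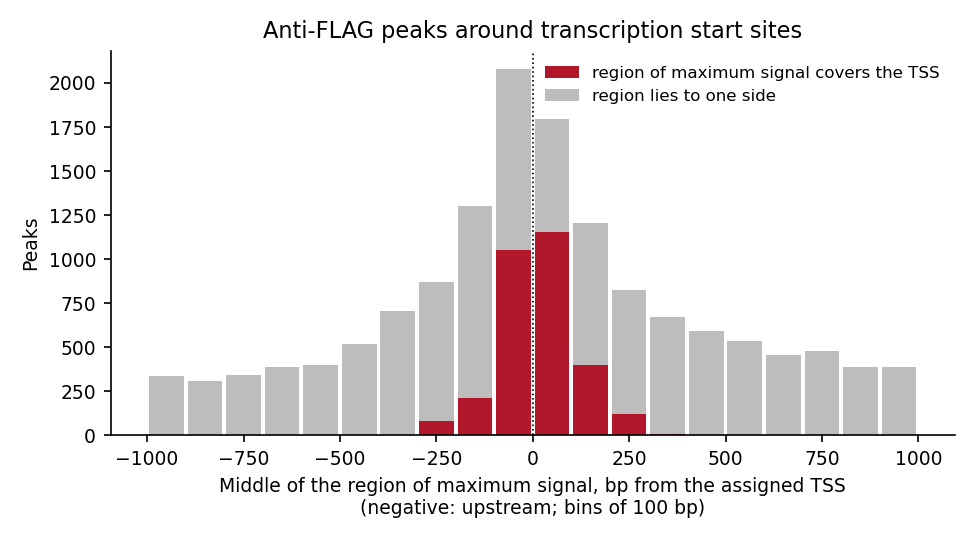
Number of anti-FLAG peaks (y axis) by the midpoint of their region of maximum signal relative to the assigned TSS (x axis, bp, bins of 100 bp), with peaks whose region covers the TSS in red and the others in grey. The 2 bins beside the start hold 2079 and 1795 peaks, and red makes up 50.6% and 64.2% of them.

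The choice of members has an edge, which fell among peaks of similar height. Peaks whose region stopped 1 to 20 bp short of the start numbered 430 upstream and 393 downstream, with median maximum signals of 142 and 141 and median regions of 71 and 98 bp. The 880 members with the start within 20 bp of an edge of the region had a median maximum signal of 132 and a median region of 101 bp. The members overall had a median region of 232 bp. The share of all peaks that were members went from 1.5% where the region was 1 to 50 bp wide to 3.96% where it was over 400 bp, so the width of the region is part of the choice and is no finding.

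In median, the peaks on a TSS were taller and wider than peaks away from promoters, and lower than promoter peaks up to 1 kb to either side. The authors' maximum signal, the highest coverage within a peak on a scale that the labels do not define, had a median of 108 (quartiles 70 and 154, range 6 to 986). The total signal that the authors give, the area under the coverage of a peak, had a median of 35102 (19707 and 57132). Median peak width was 492 bp (303 and 661). The 6200 peaks with a region up to 1 kb upstream of a start had a higher median maximum, 121, on a similar width of 482 bp, and the 6061 peaks up to 1 kb downstream had 116 on 478 bp. The other 84500 peaks were lower and shorter, at 99 and 344 bp. Signal did not dip at the start when all peaks were placed by the midpoint of their region. Median maxima were then 139 and 133 in the 100 bp before and after the start, against 103 and 101.5 in the outermost bins within 1 kb. The choice of members favours wide regions, and its part in their lower median was not tested. Very wide peaks were less common on a TSS than beside one, with 18.6% wider than 700 bp against 27.1% upstream and 24.8% downstream, differences of -8.43 points (-10.2 to -6.63) and -6.19 (-7.94 to -4.41).

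Ranked among all peaks by maximum signal, the members had a median percentile of 55.3, against 65.4 for upstream and 61.6 for downstream peaks. Of the peaks on a TSS, 16.5% (15.2 to 17.9) were in the top 10% of all peaks by maximum signal, against 24.9% upstream, 19.5% downstream and 8.0% elsewhere. The differences were -8.39 percentage points (-10.1 to -6.66) from the upstream peaks, -2.95 (-4.59 to -1.27) from the downstream peaks and 8.52 (7.23 to 9.90) from the rest. By total signal the gaps to the neighbours were smaller, at -3.78 points (-5.58 to -1.94) upstream and -1.52 (-3.30 to 0.307) downstream, the last of which includes 0. Tall peaks have narrow regions of maximum signal, with a median of 57 bp in the top 10% of all peaks and 392 bp in the lowest, and a narrow region covers a start less easily. Even so, the share of peaks on a TSS was 5.0% in the top 10% and 2.46% in the lowest 10%.

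**Figure D2:**
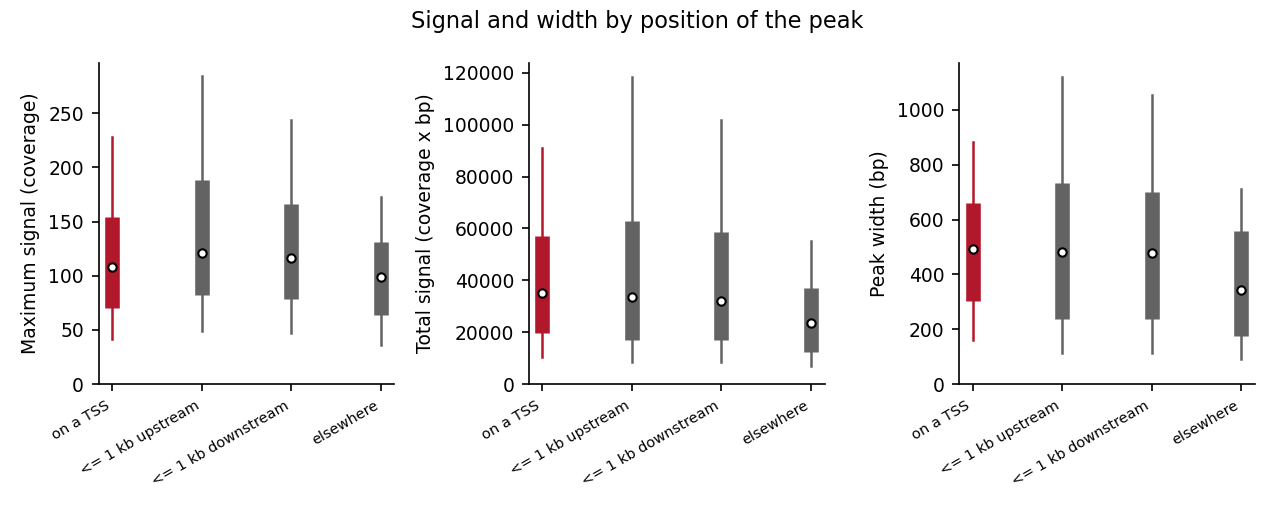
Maximum signal, total signal and peak width (y axes) of peaks on a TSS (red) and of peaks up to 1 kb upstream, up to 1 kb downstream and elsewhere (grey), with the median as a point, the quartiles as a thick bar and the 10th and 90th percentiles as a thin line. Peaks on a TSS have a median maximum signal of 108, below the 121 and 116 of their neighbours and above the 99 of the rest.

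Peaks on a TSS came in 2 shapes in nearly equal numbers. In 1486 (49.2%, 47.4 to 51.0) the total signal was at least 99% of maximum signal times width, so that coverage was the same along the peak. These constant-height peaks were lower and shorter, with a median maximum of 84 and a median width of 351 bp. The other 1535 rose to a summit, with a median maximum of 151, a median width of 636 bp and a median of 60.3% of the full rectangle. The constant-height share was 41.3% in the upstream peaks and 45.4% in the downstream ones, and 66.7% elsewhere. The differences were 7.91 points (5.75 to 10.1), 3.77 (1.59 to 5.94) and -17.5 (-19.3 to -15.7). A constant-height peak is its own region of maximum signal, with a median region of 348.5 bp against 145 bp in the other members, so this excess over the neighbours moves with the width that enters the choice, whose part in it was not tested.

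**Figure D3:**
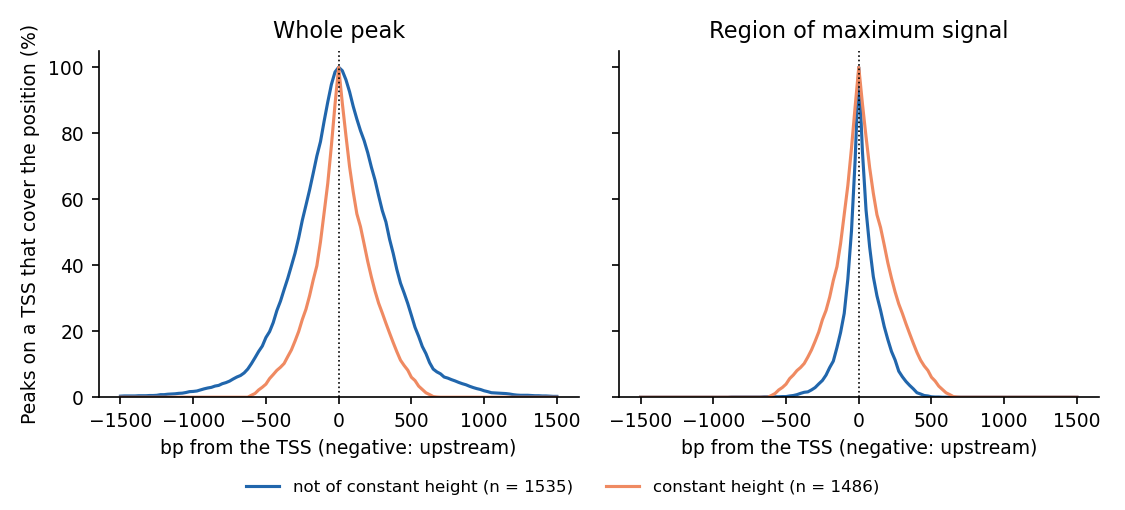
Share of peaks on a TSS whose extent covers each position (y axis, %) against the distance from the TSS (x axis, bp), for the whole peak on the left and the region of maximum signal on the right. The 1535 peaks not of constant height (blue) spread further than the 1486 of constant height (orange) as whole peaks, with median widths of 636 and 351 bp, and less far in their region of maximum signal, with medians of 145 and 348.5 bp.

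The highest peaks on a TSS belonged to genes of varied function. Itsn1, which encodes the endocytic scaffold intersectin 1, had the highest maximum signal at 986, on a peak of 2102 bp whose region of maximum signal was 18 bp wide. Fam131a followed at 723 and Hnrnpll, a regulator of splicing, at 629. Cox14, an assembly factor of cytochrome c oxidase, had 624, the homeodomain factor gene Meis3 had 584 and Camkk1, a kinase that activates calcium/calmodulin-dependent kinases, had 580. The transcript assigned to Cox14 is not in the GENCODE M21 annotation, and the Cox14 region of maximum signal covered no start of that annotation. Ankrd17 had 528, Tango2 523, Mbd5, which encodes a methyl-CpG-binding-domain protein, 521, and Mapt, the gene of the microtubule protein tau, 512. None of these 10 was of constant height.

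By total signal the order changed, with longer peaks first. Camkk1 led at 549017 over 2038 bp, followed by Itsn1 at 494806. Gse1 had 448835 on the longest member, a peak of 3024 bp that lay almost wholly upstream of its TSS, reaching 2534 bp before it and 489 bp after. Tfeb, the gene of a regulator of lysosomal genes, showed the opposite layout, with 387788 over 2666 bp that reached 338 bp upstream and 2327 bp downstream. Ctdsp2, a phosphatase of the polymerase's carboxy-terminal domain, also extended mainly into the gene, by 2180 bp against 289 bp upstream, with a total of 342135. Sirpa had 357669, Mbd5 310247, the postsynaptic scaffold gene Shank3 307590, Pex16, required for peroxisome formation, 302238, and Pafah1b1, a regulator of the motor dynein, 300048. Camkk1, Itsn1 and Mbd5 were in both lists of 10.

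The lowest members were scarcely above the lowest peak of the library, whose maximum was 5. Parva and Prpf3 each had a maximum signal of 6, on peaks of 689 and 694 bp, and their total signals were 3810 and 4160. Vangl1, Mir7018 and Mb each had 7. Prpf3, Vangl1 and Mir7018 were of constant height, and Parva and Mb were not. At the other end of that shape, the highest constant-height members were Ube2b and Vegfa at 172 each, so no constant-height member entered the top 10% of all peaks.

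Most of the starts belonged to protein-coding genes, and under 50% of the regions covered the 5′ end of the gene. Of the 3021 assigned transcripts, 2994 (99.1%) are in GENCODE M21, all with the same TSS position. Of these, 2825 (94.4%) belonged to protein-coding genes, 131 to long noncoding RNA genes, 26 to microRNA genes and 9 to pseudogenes. Within protein-coding genes, 68.6% (66.9 to 70.3) of the transcripts were themselves annotated as coding, and the others were processed or retained-intron transcripts and the like. The region of maximum signal covered the annotated 5′ end of the gene in 1401 members (46.8%, 45.0 to 48.6), and the whole peak covered it in 1694 (56.6%, 54.8 to 58.3). The other 1593 lay on starts inside the gene, a median of 1369 bp from the 5′ end (quartiles 253 and 15242), and 852 were more than 1 kb inside.

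Coverage of the 5′ end depended on whether the whole peak or its region was counted. Whole peaks not of constant height covered the 5′ end of the gene in 66.3% (63.9 to 68.6), against 46.6% (44.0 to 49.1) of constant-height peaks. For the region of maximum signal alone the shares were 47.2% and 46.4%. The peaks not of constant height are wider, with a median of 636 against 351 bp, and a constant-height peak is nearly its own region. The part of width, and of other differences between the 2 shapes, in the gap of whole peaks was not tested. Regions often covered several starts: 1178 (39.3%) held at least 2 TSS positions, and 154 (5.14%) held starts of 2 or more genes, where the assignment to 1 gene is arbitrary. Peak calls cannot tell which of several overlapping transcripts is in use.

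The members were assigned to 2832 genes, of which 172 had 2 or more members and 15 had 3 or more. Tns1, the gene of the focal-adhesion protein tensin 1, had 4, with maximum signals of 194, 120, 116 and 26, of which the first was not of constant height and the lowest lay on the 5′ end of the gene. Nedd4l, a ubiquitin ligase gene, also had 4, from 31 to 102, and 3 of them were of constant height. Tenm4, encoding a teneurin adhesion protein, had 389, 299 and 73 at 3 starts, Tcf4, a basic helix-loop-helix factor gene, had 234, 210 and 40, and the neuronal phosphatase gene Ptpn5 had 229, 95 and 85. Within each of these genes the starts differed in height, and none of the members of Tenm4, Tcf4 or Ptpn5 lay on the 5′ end of the gene. These 3 are the genes with the highest maximum among those with 3 members. The others had narrower ranges, for example 78 to 184 in Tpm1 and 73 to 97 in Abr.

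A minority of the peaks on a TSS covered an opposed gene pair. In 293 members (9.70%, 8.69 to 10.8) the peak also spanned the start of another gene on the opposite strand, against 5.03% of upstream peaks, 4.26% of downstream peaks and 0.318% elsewhere. The difference was 4.67 points (3.51 to 5.89) from the upstream and 5.44 (4.30 to 6.65) from the downstream peaks. These differences cannot be read apart from the choice of members, which cover a start by definition while peaks up to 1 kb away need not reach any. Among all peaks whose whole extent covered a GENCODE start, members included, the share was 10.04%, and among those with a region within 100 bp of a start it was 9.66%. Among peaks not of constant height the shares were 14.9% on a TSS, 7.99% upstream and 7.13% downstream. The partner was protein-coding in 199 of the 293 (67.9%) and started upstream of the assigned TSS in 214 (73.0%), a median of 121 bp away on either side. In 121 of them the region of maximum signal covered both starts.

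Peaks over such pairs were taller and wider than the other peaks on a TSS. Their median maximum signal was 138 (quartiles 94 and 218) against 105.5 (69 and 148), their median width 635 bp against 478.5 bp, and 22.2% against 52.1% were of constant height. The Itsn1 peak spanned the start of Cryzl1, 306 bp upstream, and that of Mbd5 spanned the start of Orc4, a gene of the origin recognition complex, 232 bp upstream. Tmem143 (maximum 495) was paired with Syngr4 at 387 bp, Pex16 (481) with Large2 at 437 bp and Kcnab2 (480), a potassium channel beta subunit gene, with the cilium gene Nphp4 at 598 bp. Camkk1 was paired with the noncoding 4732414G09Rik at 167 bp. A wider peak spans a second start more easily, and the part of width in this difference was not tested.

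The promoters under the members were rich in CG. A promoter, taken as 250 bp before to 50 bp from the TSS on, was called CpG-rich when its GC content was at least 50% and its CG count at least 0.6 of that expected from its C and G. By this measure 55.7% (53.9 to 57.5) of members had a CpG-rich promoter, against 38.5% of the 93443 starts of protein-coding genes, a difference of 17.2 points (15.4 to 19). Promoters assigned to upstream and downstream peaks were at 47.7% and 48.0%, which was 7.98 points (5.81 to 10.1) and 7.72 (5.55 to 9.89) below the members. Peaks closer to a start had shares like the members, with 56.9% for regions within 100 bp of a TSS and 55.9% for whole peaks over a GENCODE start, both sets including the members. Mean GC content was 60.2% ± 9.35 (SD over 3021 promoters) in members and 55.1% ± 11.5 over all starts. Among the 10 highest by maximum signal, Fam131a, Meis3 and Tango2 fell short of the CpG-rich definition.

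Within the members the share followed the signal. It was 45.1%, 52.6%, 56.3% and 68.9% (65.5 to 72.1) from the lowest to the highest of 4 equal groups by maximum signal, and 66.6% in peaks not of constant height against 44.4% in constant-height peaks. Members on CpG-rich promoters had a median maximum of 117 (quartiles 80 and 172) and those on other promoters 97 (62 and 133). They spanned opposed pairs in 14.3% (12.7 to 16.1) against 3.89% (2.98 to 5.06), and their regions covered the 5′ end of the gene in 53.3% against 38.6%. GC content can also affect how well fragments are amplified and sequenced, and its part in these values was not tested.

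**Figure D4:**
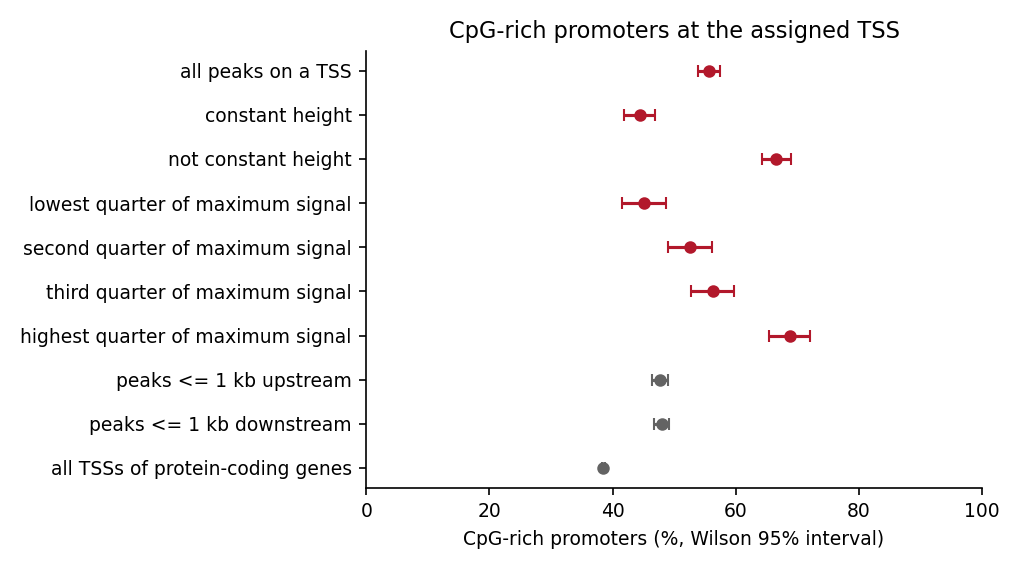
Share of CpG-rich promoters (x axis, %, with Wilson 95% intervals) at the assigned TSS of peaks on a TSS, in all, by shape and by 4 equal groups of rising maximum signal (red), and of neighbouring promoter peaks and all starts of protein-coding genes (grey). The share goes from 45.1% in the lowest to 68.9% in the highest of these groups, with 38.5% over all starts.

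Seen from the gene, 9056 protein-coding genes had a CpG-rich first start, and 9.88% (9.29 to 10.5) of these starts lay under a region of maximum signal. Of the 12875 with a CpG-poor first start, 3.58% (3.27 to 3.92) did, and the difference was 6.30 points (5.62 to 7.0). For any peak within 1 kb of the start the shares were 59.7% and 25%. Genes whose start lay under a region of maximum signal therefore numbered 16.6 per 100 with a peak within 1 kb in the CpG-rich class and 14.3 per 100 in the CpG-poor class.

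Motif content of the same 300 bp promoters, searched on both strands, differed from that of all starts mostly in the direction of base composition. The GC box (GGGCGG) was in 54.7% of members and 38.5% of all starts, and the TATA box (TATAAA) in 6.49% and 11.5%. At starts assigned to upstream and downstream peaks, the GC box was in 50.4% and 48.4% and the TATA box in 7.63% and 7.21%. For the TATA box, the interval of the difference from the downstream set, -1.79 to 0.399 points, includes 0. The CCAAT box was in 33.5% of members and 34.8% of all starts, and the interval of this difference, -2.95 to 0.470 points, includes 0. The ETS core (CCGGAAG) was in 13.4% (12.3 to 14.7) of members, 10.4% of all starts, 8.86% of starts assigned to upstream peaks and 9.24% of those assigned to downstream peaks, so members exceeded all 3, by 3.03 (1.84 to 4.31), 4.58 (3.20 to 6.02) and 4.20 (2.80 to 5.64) points. The ZBTB33 core (CTCGCGAG) was in 1.72%, 1.06%, 0.968% and 0.924% in the same order. The core (CGCATGCG) bound by the factor that Nrf1 encodes was in 2.38% of members and 2.08% of all starts, a difference whose interval of -0.191 to 0.918 points includes 0. The YY1 core (AAGATGGC) was in 3.67% and 3.47%, the CRE (TGACGTCA) in 2.75% and 1.94%, the E-box (CACGTG) in 7.85% and 7.06% and the AP-1 site in 5.53% and 6.69%. The interval of the difference excluded 0 for the CRE (0.272 to 1.46 points) and the AP-1 site (-1.94 to -0.272). It included 0 for the YY1 core and the E-box.

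The insulin response sequence, the element reported for PARIS, was less frequent at these starts than at starts in general. It was in 163 member promoters (5.40%, 4.65 to 6.26) against 10.2% of all starts, a difference of -4.85 points (-5.62 to -3.96). It was in 6.03% of starts assigned to upstream peaks and 7.26% of those assigned to downstream peaks. The members differed from the upstream set by -0.638 points (-1.61 to 0.395), an interval that includes 0. From the downstream set they differed by -1.87 points (-2.88 to -0.800). The sequence is made of A and T but for 1 possible G, and its frequency followed base composition. It was in 2.85% of CpG-rich and 8.59% of other members, against 3.86% of CpG-rich starts and 14.4% of CpG-poor first starts of protein-coding genes. The member share was the lower in both classes. Only 46.8% of member regions covered the 5′ end of the gene, so unlike sets of starts are set side by side here. This was not tested further. Members with the sequence had a median maximum signal of 85 and those without it 109. The highest 4 that held it were Dtnb at 280, Dbndd2 at 274, Zcchc7 at 267 and Mrpl1, a mitochondrial ribosomal protein gene, at 262. A match is a string of letters and is not evidence that the site is bound.

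A peak on a TSS was found for 2747 of 21931 protein-coding genes (12.5%), and one not of constant height for 1460 (6.66%). A gene counted when a member's region covered any of its GENCODE M21 starts, even where the peak was assigned to another gene. The share was higher in genes with more starts. It was 3.87% for genes with 1 TSS position, 7.98% for 2 or 3, 15.8% for 4 to 6 and 24.8% for 7 or more. For the first start alone, where further starts cannot add to the count, it went from 3.87% to 8.28% over the same classes. The gene groups below are given with their median number of starts per gene, whose part in the counts was not tested, and no group was tested.

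Neuronal and synaptic genes stood near or above the share of all genes, with wide intervals. Of 21 synaptic scaffold and adhesion genes, which had a median of 9 starts, 5 had a peak on a TSS, each with at least 1 that was not of constant height. Among them were Shank3 (261), Homer1 (133), Dlg2 (102) and Dlgap1 (81). Of 19 synaptic vesicle genes (median 5 starts), 4 did, among them the synapsin gene Syn1 (159), the priming factor gene Unc13a (103) and the complexin gene Cplx1 (95). The Wilson intervals for the shares of both groups, 10.6 to 45.1% and 8.51 to 43.3%, held the 12.5% of all genes. Of 20 activity-regulated genes (median 3) 2 had one, Homer1 and the AP-1 gene Fosb (64). Some peak lay within 1 kb of the first start in 16 of the 21 scaffold, 17 of the 19 vesicle and 15 of the 20 activity-regulated genes, against 39.3% of all genes. Of 16 genes of glucose and insulin signalling (median 4.5 starts), 4 had a peak on a TSS (25%, 10.2 to 49.5), an interval that held 12.5%. They were Foxo3 (132), Foxo4 (110), Akt1 (98) and Igf1r (48), and 1 of these peaks was not of constant height. None of the 16 had one on its first start, and 9 had some peak within 1 kb of it. First starts were CpG-rich in 14 of these 16 genes. They were so in 9 of the scaffold, 11 of the vesicle and 14 of the activity-regulated genes. The part of CpG content in the counts of these lists was not tested.

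Marker genes of hippocampal cell types were too few to be set apart from the 12.5% of all genes. The excitatory neuron list (median 4 starts) had 2 of 16, Camk2b (152) and Lhx2 (137, constant height). The interneuron list (median 2) had 2 of 16, the vesicular GABA transporter gene Slc32a1 (76) and the Lhx6 factor gene (49, constant height). The Slc32a1 peak was assigned to Gm14204, and its region also covered a start of Slc32a1. The astrocyte list (median 6) had 1 of 10, the connexin gene Gjb6 (117, constant height). The oligodendrocyte (12 genes, median 3 starts), microglia (12, median 3) and endothelial (8, median 4) lists had none. With so few genes the intervals for the last 3 lists reach 24.2%, 24.2% and 32.4%, so a share of 12.5% was not detectable as different at this size. Counted as any peak within 1 kb of the first start, the counts were 9 of 16 for excitatory neurons, 10 of 16 for interneurons, 2 of 12 for oligodendrocytes, 2 of 10 for astrocytes, 3 of 12 for microglia and 2 of 8 for endothelial cells, against 39.3% of all genes. Each list's Wilson interval held 39.3%, for example 38.6 to 81.5% for interneurons and 4.70 to 44.8% for oligodendrocytes. First starts were CpG-rich in 31.25%, 25%, 33.3%, 10%, 8.33% and 25% of these lists' genes, in that order. The part of CpG content in these counts was not tested. These are positions of peaks and not expression levels. The share of each cell type in the tissue was not measured.

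Genes of the ribosome, respiratory chain and proteasome, which nearly every cell uses, had shares of 18.5 to 20.5% against 12.5% of all genes when peaks of both shapes were counted. Wilson intervals were 12.9 to 29.7% (cytosolic ribosomal), 12.2 to 29.7% (mitochondrial ribosomal), 11.6 to 28.3% (respiratory chain) and 10.8 to 35.5% (proteasome). All but the first held 12.5%. First starts were CpG-rich in 71.8%, 71.4%, 58.0% and 64.1% of these genes, in that order. Over all genes, 18.3% with a CpG-rich first start had a peak on a TSS, against 8.46% with a CpG-poor one. The part of CpG content was not tested. Counted without constant-height peaks, the respiratory chain had 1 of 81 genes, against 6.66% of all genes. Of 85 cytosolic ribosomal protein genes (median 6 starts), 17 had a peak on a TSS, with maximum signals from 28 to 246, and 8 had one not of constant height, led by Rpl11 (246), Rpl12 (241), Rps19 (229) and Rps2 (219). Of 77 mitochondrial ribosomal protein genes (median 4), 15 did, from 36 to 262, led by Mrpl1 (262), Mrpl30 (250), Mrps24 (218) and Mrps14 (191), and in 10 of the 15 the peak was not of constant height. Of 81 respiratory chain genes (median 4), 15 did, from 12 to 186, and here 14 were of constant height. The exception was the testis-type subunit gene Cox6b2 (186), and the next were Uqcrc2 (127), Cox5b (124) and Cox7b2 (122). Of 39 proteasome genes (median 5), 8 did, 3 of them with a peak not of constant height, led by Psmd1 (194), Psmd5 (155), Psmb6 (148) and Psmd14 (103).

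Developmental and clustered families ranged from the share of all genes to none. Of 39 Hox genes (median 2 starts) 5 had a peak on a TSS, among them Hoxc5 (211), Hoxb6 (103) and Hoxa13 (64), and of 67 replication-dependent histone genes (median 1) 7 did, led by Hist1h3i (249), Hist1h3g (162), Hist1h2ac (119) and Hist1h2ad (104). Histone genes are near-identical copies, and reads that match several of them cannot be placed with certainty. The clustered protocadherins (median 1) had 3 of 57, Pcdhb18 (78), Pcdhgc4 (43) and Pcdha8 (27). The zinc-finger genes with a Zfp symbol (median 3) had 52 of 394 (13.2%, 10.2 to 16.9), led by Zfp719 (428), Zfp692 (282), Zfp433 (270) and Zfp523 (269). None of 1093 olfactory receptor genes (median 2) had one, which allows a share of up to 0.350%, and 1 of 327 vomeronasal receptor genes (median 1) did, Vmn2r36, with a maximum signal of 12. Of 12 liver-specific genes (median 2.5), taken as an off-tissue list, the haptoglobin gene Hp (120, constant height) had one.

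**Figure D5:**
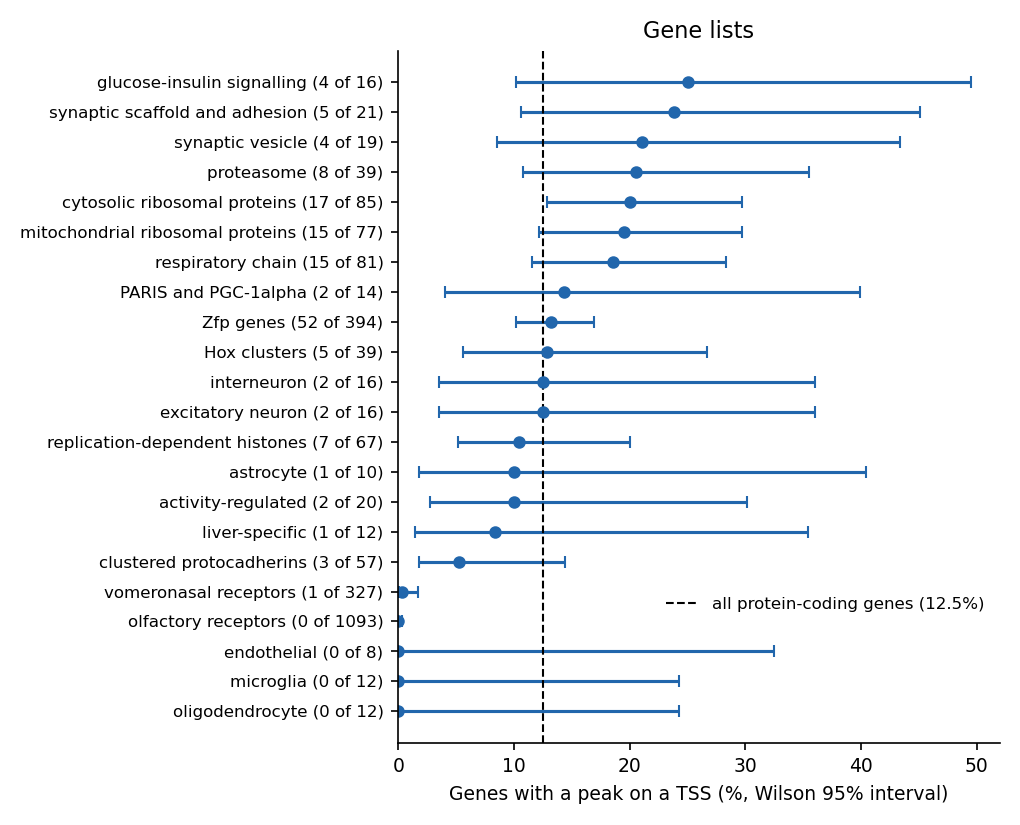
Share of genes with a peak on a TSS (x axis, %, with Wilson 95% intervals) for each gene list (y axis, with the count of genes), and for all protein-coding genes (dashed line, 12.5%). The synaptic and housekeeping lists lie to the right of the line with intervals that mostly include it, and the receptor families of smell lie at 0 or close to it.

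Among 14 genes reported to be linked to PARIS or PGC-1alpha (median 4.5 starts), 2 had a peak on a TSS. Mdm4, encoding a regulator of p53, had a maximum signal of 239 on a peak at chr1:133025174-133025476 that was not of constant height. That peak lay inside the gene, 5085 bp from its first start, on the starts whose upstream bases are shown above. Ppargc1b, the coactivator gene related to Ppargc1a, had 107 on its first start. The peaks of Zfp746 (166) and Nrf1 (90) spanned the first start of the gene, but their regions of maximum signal lay at 639 and -281 bp from the assigned start (negative is upstream), so neither is a member. Near misses were the Pink1 peak, of constant height and with a maximum of 32, at 98 bp upstream, and that of the mitochondrial transcription factor gene Tfam (74) at 50 bp downstream. The peaks of Aimp2 (234) and Esrra (290) lay 376 and 375 bp downstream of their assigned starts.

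Other genes of that list had no peak near the first start. The nearest peak to the first start of Ppargc1a was 40182 bp away, with a maximum of 150, that of Tkt 10259 bp (51), that of G6pc 7324 bp (171) and that of Pck1 1776 bp (132). The nearest peak to the start of Igfbp1, 16083 bp away, was itself a peak on a TSS, that of its neighbour Igfbp3 (160), which encodes another binding protein of insulin-like growth factors. Pck1, G6pc and Igfbp1, the liver genes in which the insulin response sequence was described, thus had no member.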

How the data were processed

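Per the labels' protocols, the authors used Bowtie2 to map trimmed read pairs to mm10, dropped duplicates and reads of low quality, and ran SEACR with the IgG library as control; versions, SEACR settings and the scale of the signal are not given in the sources used here. The deposited signal columns hold whole-number coverage: the total over a peak and its maximum. A second deposited table gives each region of maximum signal its annotation and its signed distance to a TSS, made with a tool and transcript set that are not given in the sources used here. Signal tracks, which the submitters' processing notes tie to deepTools, were not used. No depth is given, so depth per library is unknown.

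The 2 deposited tables were joined by position, and 15 of the 99797 peaks without annotation were left out. Starts, genes and transcripts came from GENCODE M21 and sequence from RefSeq's GRCm38.p6, both of the mm10 build. Of the members, 2415 had their symbol in RefSeq's promoter table (GRCm38.p6), and 508 had their TSS as a start in it, all 508 with the same sequence. Peaks of at least 99% of the rectangle of maximum signal times width were called constant height. Shares carry Wilson and differences Newcombe 95% intervals. The interval code was checked on fixed counts against another implementation, and the overlap and motif code on simulated data. Python 3.11.15, pandas 2.3.3, numpy 2.4.6 and pysam 0.24.0 were used.

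The members and gene lists were chosen with earlier results of these data known. Named are the 10 highest members by maximum and by total signal, the 3 lowest (5 are given because of ties), the 5 genes with the most members, up to 4 members per list and the genes of the PARIS list; a few genes that this rule names are not reported here. Sequences are those of the 3 highest, the highest with an insulin response sequence in the printed bases, the highest over an opposed pair and those of the PARIS list, none on chromosome 18. Named outside this rule, after their values were seen, were Parva's sequence, the highest constant-height members, further opposed pairs and further members with the insulin response sequence. Alternatives changed the set of peaks, the definition of a start, the CpG threshold, the window and the motif.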

Additional observations from a re-analysis of the deposited data

How the results depend on the processing

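Of 70 alternatives computed for 8 results, 31 stayed within the interval of the reported value (for the number of peaks, within 1.5 times) and 39 moved outside it. Stricter sets hold fewer peaks by construction. Without constant-height peaks, 1535 peaks on a TSS remained, with a median maximum signal of 151; 6.66% of genes had one, 66.6% of promoters were CpG-rich, 14.9% spanned an opposed start and 4.04% of promoters held the insulin response sequence. The constant-height share itself has no value there. With a maximum signal above the median of all peaks, the values were 1649 peaks, 29.7% constant height, a median of 147, 7.13% of genes, 61.6% CpG-rich, 12.5% opposed and 4.12% with the sequence. In the top 10% they were 499 peaks, 0% constant height, a median of 242, 2.22% of genes, 68.9% CpG-rich, 18% opposed and 3.01% with the sequence. Peaks at least 200 bp wide gave 43.3% constant height and 10.96% of genes.

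Looser definitions of a start raised the counts. Regions within 100 bp of a TSS gave 6170 peaks, 39.2% constant height, a median of 121, 24.8% of genes and 55.7% of regions on the 5′ end of the gene. Whole peaks over a GENCODE start gave 7934 peaks, 23.7% constant height, a median of 138.5, 28.9% of genes and 64.0% on the 5′ end. Protein-coding starts of GENCODE alone gave 44.8% on the 5′ end. CpG-rich promoters were 63.0% with a CG ratio of at least 0.5, 40.8% with 0.75 and 60.8% in a 500 bp window. Opposed starts within the region of maximum signal alone were 4.01%. The insulin response sequence was in 8.24% of 500 bp windows, and its TATTTTG form in 2.25% of promoters. The causes of the shifts not set by construction were not tested. No paired analysis was possible because each antibody has 1 library. Depth is unknown and 1 library gives no replicate error, so no value here can be set against biological spread.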

Other observations

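Chromosome X held 93 peaks on a TSS among 1974 peaks, or 4.71% (3.86 to 5.74), above the 3.0% of the autosomes together, which ranged from 2.18% on chromosome 18 to 3.70% on chromosome 17. Counted by gene, the order was the opposite, with a peak on a TSS for 8.99% of protein-coding genes on X against 12.8% on the autosomes (10.4 to 15.5% by chromosome). Chromosome Y had 2 members among 93 peaks. The labels give no sex of the animals, so the number of X copies behind these values is unknown.

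Peaks on a TSS often had company. The median gap to the next peak was 2821 bp (quartiles 524 and 8970), and 34.4% (32.7 to 36.1) had another peak within 1 kb, against 40.5% of upstream, 41.4% of downstream and 19.8% of the other peaks. Some peaks outside the members also touched a start. There were 540 other peaks with a region of maximum signal over a GENCODE M21 start of a transcript other than the assigned one, and 4921 with one under their whole extent.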
